A study of Mus musculus with 4 samples.

Results

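Chromatin accessibility was examined at 9 genes of the extracellular matrix and of proteoglycans: Col1a2, Fn1, Thbs1, Thbs2, Tnc, Fbln1, Dpt, Vcan and Sdc2. Every region that the authors' tables assign to 1 of these genes by name was taken, which gave 4 of 5727 regions in the Kindlin-2 table, 1 each for Fn1, Thbs1, Vcan and Sdc2. In the Rela table it gave 10 of 28445 regions, 1 for each gene and a second one for Col1a2. Cells were profiled by ATAC-seq: the transposase Tn5 cuts open chromatin and tags the cut ends, so that a region yields more fragments the more open it is. The 4 mouse fibroblast cultures were compared in pairs: Kindlin-2 knockout against Kindlin-2 floxed cells, both from kidney, and Rela knockout against Rela wild-type cells, both of the embryonic fibroblast line 3T3. All were at passages 15 to 20 and grown in medium with calf serum, and 50000 cells entered each library. How the alleles were deleted, and whether each culture is 1 clone, is not given in the sources used here. Kindlin-2 (gene Fermt2) takes part in integrin activation by binding the tails of these receptors, and Rela encodes the p65 subunit of NF-kB. Each culture has 1 value per region, a background-corrected and DESeq-normalized score that is called normalized signal here, although the design text speaks of 2 biological replicates. No difference below therefore has a replicate check and no test of genotype was possible.

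Fibroblasts secrete fibrillar collagens, fibronectin and proteoglycans and assemble them outside the cell, where integrins and syndecans bind them and link them to the actin cytoskeleton. Fibronectin is laid down as fibrils by integrins that pull on it, a step for which integrin activation is needed. Thrombospondins, tenascin-C and other matricellular proteins modify how cells adhere rather than build the scaffold, and many of their genes are known to respond to growth factors, mechanical load and inflammatory signals, NF-kB among them. Accessibility of a promoter is not a measure of its transcription, which was not analysed here.

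In the Kindlin-2 table the summed signal was 827408 in knockout and 1655317 in floxed cells, of which 86.2% and 91.8% lay in mitochondrial regions. The nuclear sums were 114217 in knockout and 134996 in floxed cells. The Rela table, with no mitochondrial region, summed to 1458609 in knockout and 1386832 in wild-type cells. The median log2 ratio over all regions was 0 in both tables. Fermt2 had 0 regions, and the 1 Rela region, at its start, held 27 in knockout and 21 in wild-type cells, so neither deletion could be checked. Regions were assigned to 0 of 14 fibroblast marker genes for the Kindlin-2 pair and to 7 of 14 for the Rela pair (summed signal 509 in knockout and 433 in wild-type cells, median log2 ratio -0.16), so the cell type of the kidney cultures could not be checked against its markers. In the Rela pair 1 of the 7, S100a4, was called higher (133 in knockout, 46 in wild-type cells) and 1, Col1a2, lower. Of 8 epithelial, 6 endothelial, 5 leukocyte and 5 smooth muscle and pericyte markers, the Kindlin-2 pair had a region for 1, the leukocyte gene Ptprc (27 in knockout, 10 in floxed cells, 4673 bp from the start). The Rela pair had regions for 3 epithelial markers, with a summed signal of 52 in knockout and 121 in wild-type cells and a median log2 ratio of 1.15. Of these Pax8 was lower (26 in knockout, 111 in wild-type cells), whereas Krt19 (19 in knockout, 8 in wild-type cells) and Cdh16 (7 in knockout, 2 in wild-type cells) were higher. It had regions for 2 leukocyte markers, Ptprc and Cd68 (summed signal 45 in knockout, 70 in wild-type cells), 1 for the smooth muscle actin gene Acta2 (76 in knockout, 143 in wild-type cells) and 0 for endothelial markers. The part of other cell types in the results was not tested.

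Differences are given as the plain ratio of the 2 signals and as log2((knockout + 1)/(control + 1)). Regions with a log2 ratio of 1 or more, or of -1 or less, were called higher or lower, which is a 2-fold difference. Brackets hold exact (Clopper-Pearson) 95% intervals of the ratio, worked out from the counts that the values imply. They cover counting error only, not the spread between cultures. For Kindlin-2 knockout no scale factor was found, so its values were taken as counts, and the intervals of that pair rest on this assumption. A region with its centre within 2500 bp of the start that the authors give for its gene is called a promoter region. Of the 14 regions 13 were of this kind.

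**Figure D1:**
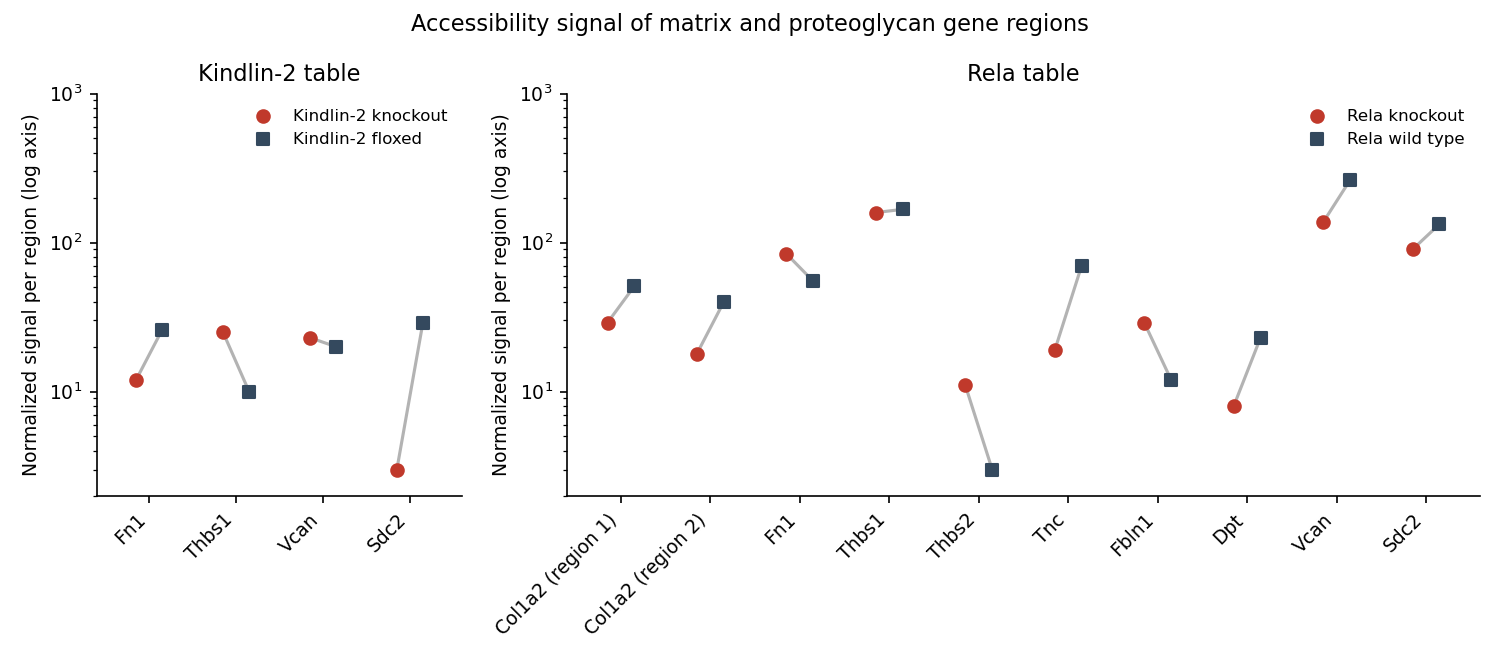
Normalized signal (log axis) of every region assigned to the 9 genes, in knockout cells (circles) and their control cells (squares), with the Kindlin-2 table on the left and the Rela table on the right. Sdc2 differed most in the Kindlin-2 pair (3 in knockout, 29 in floxed cells), and in the Rela pair the highest signal was at Thbs1 in knockout cells (159) and at Vcan in wild-type cells (262). By mean signal per kb these 2 Rela-table regions stood at percentiles 47.7 (Thbs1) and 16.1 (Vcan) of promoter regions.

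For the Kindlin-2 pair, the question was how open these genes are in knockout kidney fibroblasts beside floxed ones. Sdc2 and Fn1 were lower in the knockout by 2-fold or more, Thbs1 was higher by 2-fold or more, and Vcan lay within 2-fold. Over all 5727 regions 25.4% were called in either direction (16.2% higher, 9.27% lower), and among 2671 promoter regions the share was 19.6% (9.06% higher, 10.6% lower). All 4 lay in the third of 4 equal groups of regions by mean signal, where 8.32% were higher and 11.5% lower, against 39.8% higher and 3.77% lower in the weakest group. The median log2 ratio of the 4 regions was -0.43, against -0.15 over all promoter regions. With 4 regions, the count of 3 called is a description of these genes and of no wider group.

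Sdc2 encodes syndecan-2, a transmembrane heparan sulfate proteoglycan that binds matrix proteins and growth factors at the cell surface. Its region, on chromosome 15 (32920621 to 32920813), covers the start of the gene and had a signal of 3 in knockout and 29 in floxed cells. The level in the knockout stood at percentile 0.629 of all regions of that library, whereas the level in floxed cells stood at percentile 76.8. Accessibility was 9.67-fold lower in the knockout (2.84 to 49.9), a log2 ratio of -2.91 at percentile 0.0936 of promoter regions. The interval lay wholly beyond 2-fold, which held for 2.58% of all regions and 1.5% of promoter regions. For 2 of the 4 regions, Sdc2 and Thbs1, the interval excluded a ratio of 1, as for 18.4% of all regions and 16.9% of promoter regions. The knockout value rests on 3 implied counts, if its values are taken as counts, so the size of the difference is loosely bounded.

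Fn1 encodes fibronectin, the ligand of several integrins. Its region, on chromosome 1 (71653269 to 71653556), lay 213 bp upstream of the start and held 12 in knockout and 26 in floxed cells. The ratio was 2.17-fold lower in the knockout (0.993 to 4.87), so that the counting interval just reached no difference. After loess scaling (log2 ratio -0.97) or with a pseudocount of 5 (-0.87) Fn1 was within 2-fold, and centred on its chromosome it was -1.32.

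Thbs1 encodes thrombospondin-1, a matricellular glycoprotein that also activates latent TGF-beta. The region, on chromosome 2 (118110299 to 118110590), lay 1431 bp upstream of the start with a signal of 25 in knockout and 10 in floxed cells. It was 2.5-fold higher in the knockout (1.10 to 7.19). Among the 50 regions nearest to it on the chromosome the median log2 ratio was 0.47, and relative to them Thbs1 was within 2-fold (0.77).

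Vcan encodes versican, a large chondroitin sulfate proteoglycan of the pericellular matrix. A region inside the gene, on chromosome 13 (89740122 to 89740515) and 2190 bp from the start, held 23 in knockout and 20 in floxed cells. These values were close to each other, with a ratio of 1.15 whose interval ran from 0.563 to 2.32. A change of 2-fold upward thus stayed within counting error, whereas one of 2-fold downward did not.

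Per kilobase of region, the 4 genes ranked in another order in each library. Knockout cells had 85.9 signal units per kb at Thbs1, 58.5 at Vcan, 41.8 at Fn1 and 15.6 at Sdc2. Floxed cells had 151 at Sdc2, 90.6 at Fn1, 50.9 at Vcan and 34.4 at Thbs1. The order of these levels was thus fully reversed between the libraries, although neighbours in it, such as Vcan and Fn1 in the knockout, were not tested against each other.

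**Figure D2:**
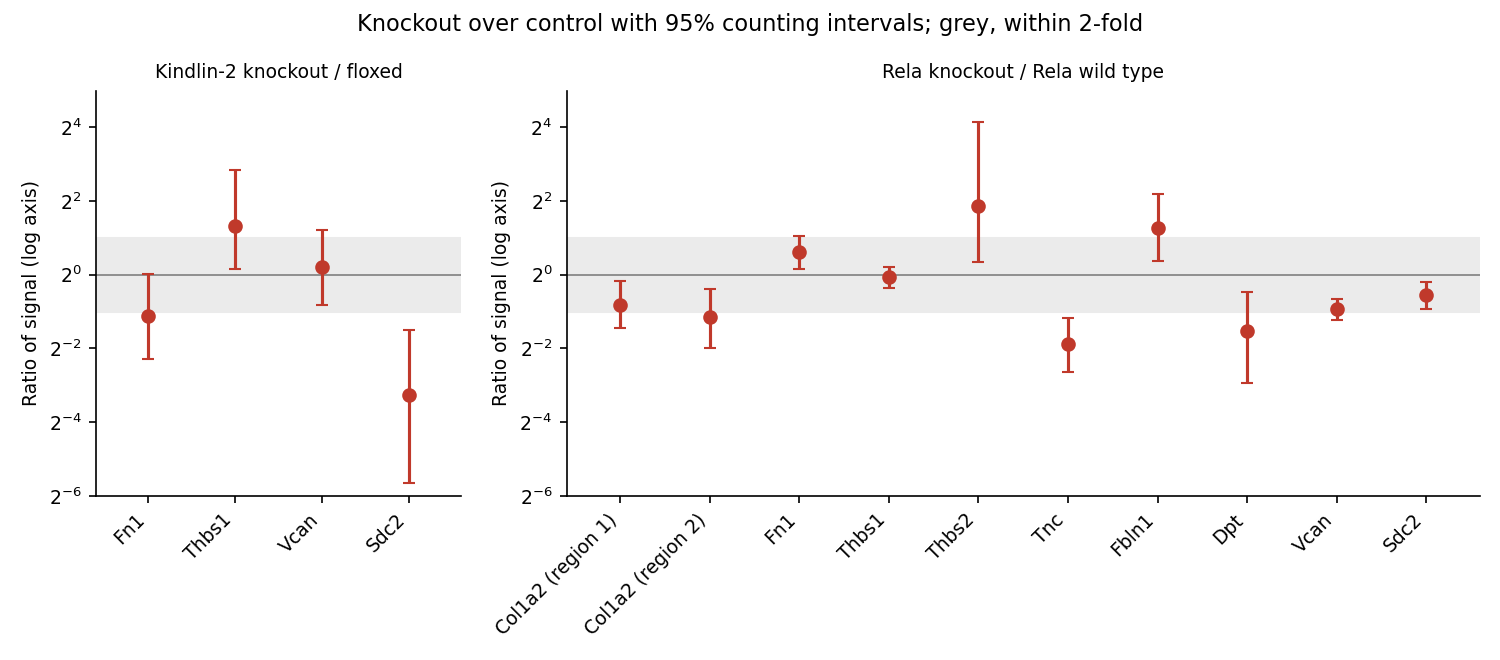
Ratio of normalized signal, knockout over control (log axis, no pseudocount), for each region of the 9 genes, with exact 95% counting intervals as bars and the range within 2-fold in grey. The intervals of Sdc2 in the Kindlin-2 pair (upper bound 0.352) and of Tnc in the Rela pair (upper bound 0.443) lay wholly below the grey band.

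For the Rela pair, the same question was put to knockout 3T3 cells and their wild type. At least 2-fold lower in the knockout were Tnc, Dpt and the second region of Col1a2. At least 2-fold higher were Thbs2 and Fbln1, and the other 5 regions, of Col1a2, Fn1, Thbs1, Vcan and Sdc2, were within 2-fold. By the same rule 43.3% of 28332 regions were called (22.4% higher, 21% lower), and 26.1% of 8061 promoter regions (13% higher, 13.1% lower). The count of 5 of 10 is close to the share over all regions, but 9 of the 10 were promoter regions. Of these 9 promoter regions 4 were called, a larger part than among all promoter regions. The Rela table was also split evenly into 4 by mean signal, with group 1 the lowest. Dpt, Fbln1 and Thbs2 fell in group 1, where 28.9% of regions were higher and 31.6% lower. Tnc fell in group 3 (21% higher, 18.2% lower), and group 4 had 12.3% higher and 8.84% lower. Whether the larger part called goes with low signal was not tested. With so few regions the count of 4 describes these genes only. The median log2 ratio of the 10 regions was -0.68 and 7 of 10 were negative, against a median of 0 over all regions. Over the 9 promoter regions the median was -0.56 and 6 were negative, against a median of -0.03 over all promoter regions. In 9 of 10 regions the counting interval excluded a ratio of 1, as it did in 60.2% of all regions and 52.9% of promoter regions. It lay beyond 2-fold in 1 of 10, Tnc, against 21.7% of all regions and 10.3% of promoter regions.

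Col1a2, which encodes the alpha-2 chain of type I collagen, had its regions on chromosome 6 at 4505413 to 4505842 and at 4507356 to 4507685. The first held 29 in knockout and 51 in wild-type cells, a ratio 1.76-fold lower in the knockout (1.13 to 2.74). The second, 2707 bp from the start, held 18 in knockout and 40 in wild-type cells and was 2.22-fold lower (1.31 to 3.97). Both were lower by a similar factor. Their surroundings were lower too: the 50 nearest regions had a median log2 ratio of -0.93 around the first and -0.83 around the second. Relative to these neighbours the first stood at 0.14 and the second at -0.28. The second was also within 2-fold when centred on its chromosome (-0.94) or with a pseudocount of 5 (-0.97). The table measures distance from a start at 4504814, whereas RefSeq places the start of Col1a2 804 bp further into the gene, 9.5 bp from the centre of the first region. Counted from the RefSeq start, the second region would also lie within 2500 bp and be a promoter region.

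Among the adhesive glycoproteins, Fn1 had a region 960 bp wide across its start (chromosome 1, 71652741 to 71653701) with 84 in knockout and 55 in wild-type cells. This was 1.53-fold higher in the knockout (1.12 to 2.09), within 2-fold, and -0.06 on the log2 scale relative to the 50 nearest regions. By signal per region, Thbs1 had 1 of the strongest of the table, 1797 bp wide on chromosome 2 (118110136 to 118111933), at percentile 95.6 in knockout and 96.9 in wild-type cells. Its mean signal per kb was ordinary, at percentile 47.7 of promoter regions. The Thbs1 signal was 159 in knockout and 167 in wild-type cells, a ratio of 0.952 (0.778 to 1.16). The Thbs1 interval is narrow enough to leave a 1.5-fold change in either direction outside counting error.

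Thbs2 encodes thrombospondin-2, a relative of thrombospondin-1 that is known for roles in collagen fibril assembly and for limiting angiogenesis. Its region, 332 bp wide on the start (chromosome 17, 14694073 to 14694405), held 11 in knockout and 3 in wild-type cells. This was 3.67-fold higher in the knockout (1.26 to 17.7), from a level at percentile 6.40 in wild-type cells. Chromosome 17 had a median log2 ratio of -0.56, and centred on it Thbs2 stood at 2.15 in place of 1.58.

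Tnc encodes tenascin-C, a hexameric matricellular glycoprotein that is induced in wounds, in tumour stroma and by inflammatory signals. Its region on the start (chromosome 4, 64046794 to 64047192) held 19 in knockout and 70 in wild-type cells, 3.68-fold lower in the knockout (2.26 to 6.26). The level stood at percentile 28.5 in knockout and 78.1 in wild-type cells. No scaling tried brought Tnc within 2-fold: its log2 ratio of -1.83 ran from -1.998 to -1.64 over 6 alternatives.

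Fbln1 encodes fibulin-1, which associates with elastic fibres and fibronectin. On the start of the gene (chromosome 15, 85205857 to 85206169) the signal was 29 in knockout and 12 in wild-type cells. Fbln1 was 2.42-fold higher in the knockout (1.297 to 4.54), and its log2 ratio of 1.21 stayed between 1 and 1.33 under the 6 alternatives. Dpt encodes dermatopontin, a small dermatan sulfate-binding protein that takes part in collagen fibril formation. Its region lay inside the gene, 1924 bp from the start on chromosome 1 (164798459 to 164798677), with 8 in knockout and 23 in wild-type cells. Dpt was 2.88-fold lower in the knockout (1.39 to 7.65), but relative to the 50 nearest regions, whose median was -0.70, it was within 2-fold (-0.71).

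Of the proteoglycan genes, Vcan had a region 3274 bp wide (chromosome 13, 89739274 to 89742548), at width percentile 99.2 of promoter regions. It held 137 in knockout and 262 in wild-type cells, 1.91-fold lower in the knockout (1.58 to 2.34) and just within the 2-fold limit by log2 ratio (-0.93). The log2 ratio was past the limit after quantile (-1.06) or loess (-1.02) scaling. Chromosome 13 had a median of -0.79, and centred on it Vcan stood at -0.14. Sdc2 held 90 in knockout and 133 in wild-type cells in a region 701 bp wide on its start (chromosome 15, 32920478 to 32921179). It was 1.48-fold lower in the knockout (1.15 to 1.91). Relative to the 50 nearest regions, which had a median of 0.52, Sdc2 was past 2-fold (-1.08).

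Per kilobase, the highest level of the 10 regions in both libraries was at Sdc2 (128 in knockout, 190 in wild-type cells). Thbs2 was lowest in both, with 33.1 signal units per kb in knockout and 9.04 in wild-type cells. Tnc had 47.7 in knockout and 176 in wild-type cells, second to Sdc2 in the wild type only. In width, 4 of the 10 regions (Fn1, Thbs1, Vcan and Sdc2) exceeded the median promoter region of 512 bp.

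**Figure D3:**
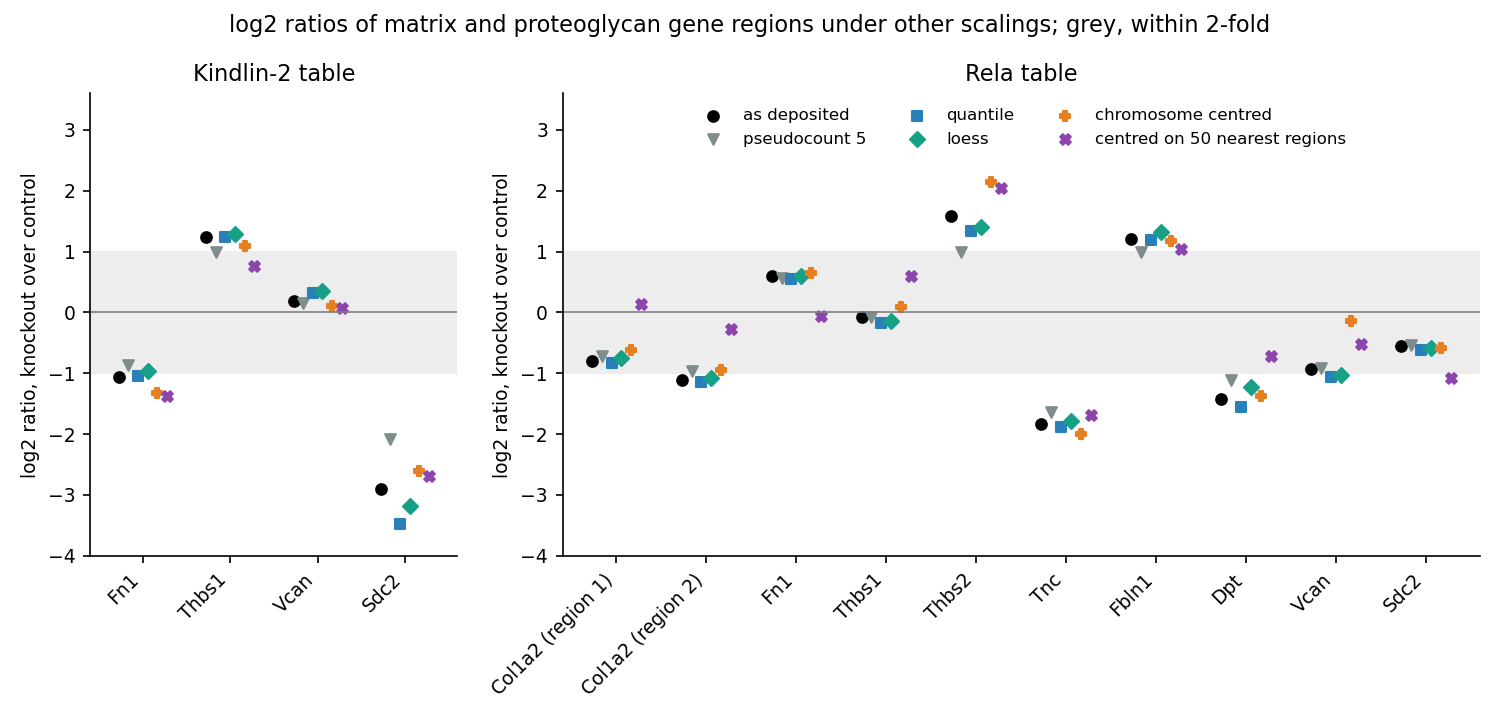
log2 ratio of each region, knockout over control, as deposited and under 5 other settings, with the range within 2-fold in grey. Sdc2 in the Kindlin-2 pair and Tnc in the Rela pair stayed below the grey band under each setting drawn, whereas the second Col1a2 region and Dpt entered it when centred on the 50 nearest regions.

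RefSeq promoter windows (build GRCm38.p6) were found for 6 of the 9 genes: Col1a2, Dpt, Fbln1, Tnc, Thbs2 and Vcan. Tnc and Fbln1 had 2 windows each, of which the one starting closest to the authors' start was taken. The RefSeq start was the same base as the start in the authors' table, on mm10, for Tnc, Thbs2 and Fbln1, for Tnc and Fbln1 after that choice. The 250 bases before the RefSeq start are shown for the 4 genes whose Rela-table region is centred 9.5 to 64 bp from that start, since part of each lies inside the region measured. The regions also extend past the start, into bases not shown. Tnc is chr4:64047016-64047265 on the minus strand, with 177 bases inside the region. Thbs2 is chr17:14694263-14694512 on the minus strand, with 143 bases inside it. Fbln1 is chr15:85205699-85205948 on the plus strand (92 bases inside) and Col1a2 is chr6:4505368-4505617 on the plus strand (205 bases inside). Each is written 5′ to 3′ along the gene, and capitals mark matches to the motifs listed after the sequences.

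Tnc: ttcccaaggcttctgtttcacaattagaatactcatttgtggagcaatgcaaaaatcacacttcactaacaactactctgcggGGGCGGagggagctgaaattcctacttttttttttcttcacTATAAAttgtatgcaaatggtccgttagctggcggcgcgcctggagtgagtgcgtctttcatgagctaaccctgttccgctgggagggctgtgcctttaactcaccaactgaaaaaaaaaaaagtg

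Thbs2: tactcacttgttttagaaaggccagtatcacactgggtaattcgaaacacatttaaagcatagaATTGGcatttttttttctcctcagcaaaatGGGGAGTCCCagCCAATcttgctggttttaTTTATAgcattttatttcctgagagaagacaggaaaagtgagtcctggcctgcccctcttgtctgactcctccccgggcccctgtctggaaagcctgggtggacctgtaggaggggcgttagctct

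Fbln1: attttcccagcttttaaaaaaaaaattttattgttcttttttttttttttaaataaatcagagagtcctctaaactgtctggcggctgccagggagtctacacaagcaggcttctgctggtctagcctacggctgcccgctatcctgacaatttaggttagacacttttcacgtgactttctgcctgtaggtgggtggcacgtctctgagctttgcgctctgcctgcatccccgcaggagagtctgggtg

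Col1a2: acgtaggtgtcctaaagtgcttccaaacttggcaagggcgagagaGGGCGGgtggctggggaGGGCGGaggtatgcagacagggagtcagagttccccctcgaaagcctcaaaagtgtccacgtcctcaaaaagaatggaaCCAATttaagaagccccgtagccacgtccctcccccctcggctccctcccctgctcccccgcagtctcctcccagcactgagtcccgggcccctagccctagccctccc

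Both strands were searched for the kappaB motif, the CArG box and the letters TGANTCA (the AP-1 motif), CATTCC (the TEAD motif), TATAAA (the TATA box), CCAAT (the CCAAT box) and GGGCGG (the GC box). Upstream of Tnc there was a GC box from -167 to -162 and a TATAAA match from -126 to -121, both inside the region. Col1a2 had GC boxes from -205 to -200 and from -188 to -183 and a CCAAT match from -109 to -105. Fbln1 had 0 matches, and so had Dpt, whose window is not shown. In the window of Vcan, not shown either since its region is centred 1601 bp away, there were GC boxes from -219 to -214 and, on the opposite strand, from -10 to -5, and a CCAAT match on the opposite strand from -103 to -99. Thbs2 was the 1 of the 6 genes with a kappaB match, from -156 to -147, which reads as a match on both strands and lies 4 bp beyond the edge of the region. Thbs2 also had CCAAT matches from -186 to -182 (opposite strand) and from -144 to -140, and a TATAAA match on the opposite strand from -126 to -121. Of 32851 RefSeq promoter windows, cut to the same 250 bases, 7.25% held a kappaB match, 12.4% TATAAA, 33.8% CCAAT and 32.7% a GC box. AP-1 letters were in 6.75% of these windows, TEAD letters in 12.6% and the CArG box in 1.47%, and none of these 3 was found in the 6 genes' windows. A match is a description of the letters and not of binding. In base composition Col1a2 had 62% G and C, above the median window of 52.4%, and Tnc (44.8%), Fbln1 (46.4%) and Thbs2 (46.8%) lay below it.

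For Fn1, Thbs1, Vcan and Sdc2, present in both tables, each Kindlin-2 region lay wholly within the Rela region of the same gene. It covered 29.9% of the Rela region at Fn1, 27.4% at Sdc2, 16.2% at Thbs1 and 12% at Vcan. Fn1 had a log2 ratio of -1.05 for Kindlin-2 knockout and 0.60 for Rela knockout, each against its own control. Thbs1 had 1.24 and -0.07 in the same order, Vcan 0.19 and -0.93, and Sdc2 -2.91 and -0.56. With the signals as deposited the sign was the same in both knockouts at Sdc2 and not at the other 3, but the counting intervals of Thbs1 in the Rela pair and of Vcan and Fn1 in the Kindlin-2 pair include a ratio of 1. Centred on the 50 nearest regions, Fn1 (-1.38 for Kindlin-2 knockout and -0.06 for Rela knockout) and Thbs1 (0.77 and 0.59 in the same order) also shared a sign. Whether the 2 knockouts differ at a gene was not tested, since each has 1 value and the tables were normalized separately.

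The 4 genes with a Kindlin-2 region were those whose Rela-table regions lay in the highest of 4 equal groups of regions by signal, and the 6 regions of the other 5 genes lay in the lower 3. This follows the tables at large. Of promoter regions in the Rela table, 53.8% of those in the highest group overlapped a Kindlin-2 region, against 20.4%, 8.64% and 3.71% in the groups below. Lack of a Kindlin-2 region for Col1a2, Thbs2, Tnc, Fbln1 and Dpt therefore cannot be told apart from the lower depth of that table.

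Other regions within 200 kb of each start were counted next, whether assigned to another gene or to none. Over all regions of the Rela table, 22.4% were called higher and 21% lower, and against these shares the counts of 3 to 10 regions per gene are descriptions only. Around Tnc, in the Rela pair, 0 of 5 such regions were at least 2-fold lower in the knockout and 1 was higher, with a median log2 ratio of 0.05, while its own region stood at -1.83. Around Sdc2, 4 of 5 exceeded the wild type by 2-fold or more (median 2.42) while the promoter was lower (-0.56). One of these regions, inside the gene and 94.9 kb from the start, held 92 in knockout and 10 in wild-type cells, and another inside the gene, at 79.9 kb, held 121 in knockout and 119 in wild-type cells.

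Dpt differed from Sdc2 in this respect. Of 10 regions around it 5 were at least 2-fold lower in the knockout and 1 higher, with a median of -0.94, beside 22.4% higher and 21% lower over all regions. The region nearest upstream, at -15.3 kb from the start, held 1 in knockout and 81 in wild-type cells (log2 ratio -5.36), and a region inside the gene held 24 in knockout and 51 in wild-type cells. Col1a2 had 4 lower and 1 higher of 10, and the higher one, inside the gene 26.3 kb from the start, held 40 in knockout and 3 in wild-type cells. These single regions were chosen after their values were seen.

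Thbs2 had 1 higher and 3 lower of 10 regions around it, and Fbln1 3 higher and 0 lower of 6. Fn1 had 2 higher and 0 lower of 5, Thbs1 0 of 4 called, and Vcan 2 higher and 0 lower of 3. Vcan's own region was lower in the knockout (-0.93) while the median of those 3 was 1.12. For the Kindlin-2 pair, 0 to 2 other regions lay within 200 kb of each start. Over all regions of that pair 16.2% were called higher and 9.27% lower. Around Fn1 1 of 2 was called, as higher, and around Thbs2, Tnc, Fbln1 and Dpt 0 were called. Both around Vcan, at -86.1 and -147 kb from the start, were higher in the knockout. The nearer held 27 in knockout and 7 in floxed cells, and the farther held 12 in knockout and 1 in floxed cells. By mean signal the nearer lay in the third of 4 equal groups, where 8.32% were higher. The farther lay in the weakest group, where 39.8% were higher.

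**Figure D4:**
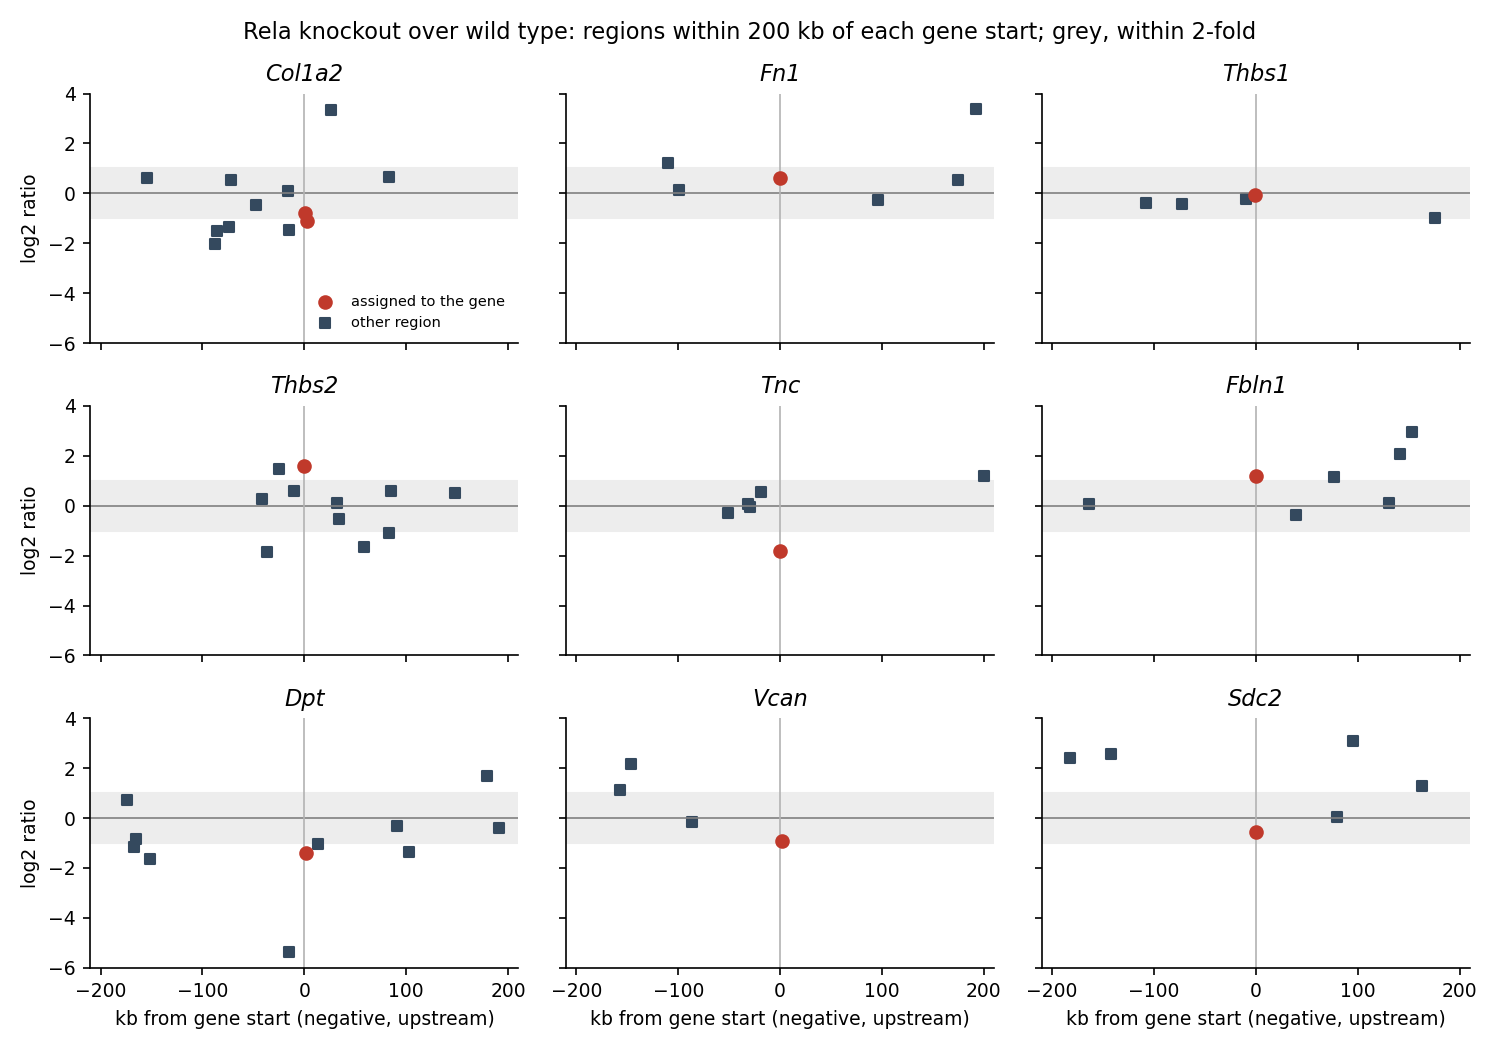
log2 ratio, Rela knockout over wild type, of regions within 200 kb of each gene start, by distance from the start in kb, with regions assigned to the gene as circles, other regions as squares and the range within 2-fold in grey. The Tnc promoter (-1.83) lay below all 5 other regions around it, and 4 of the 5 regions around Sdc2 lay above the grey band.

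The other matrix genes were described from lists of collagens, matrix glycoproteins, proteoglycans, glycosaminoglycan synthesis, collagen processing, matrix turnover (without the Mmp family) and matrix receptors. Leaving out the 9 genes above, these lists hold 259 genes, of which the Kindlin-2 table covers 19 and the Rela table covers 113. Of the 19, 3 were higher in Kindlin-2 knockout cells by 2-fold or more and 2 lower, with a median log2 ratio of 0.11 over 20 regions. Of these 20 regions 3 were higher and 2 lower, near the 25.4% called over all regions of that table (16.2% higher, 9.27% lower). Among the 18 that were promoter regions 2 were higher and 2 lower, against 9.06% and 10.6% of all promoter regions of that table. In the Rela pair 12 of 113 genes had a region higher in the knockout and 19 had one lower, with a median of -0.02 over 129 regions. Of their 102 promoter regions 11 were higher and 15 lower, against 13% and 13.1% of all promoter regions in the same order. The counts per list below cover all regions, of which 22.4% were higher and 21% lower in the Rela table as a whole. Most list regions, 102 of the 129, were promoter regions, for which the shares of 13% and 13.1% are the closer comparison.

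Among the Kindlin-2 pair's other matrix genes, Lrp1 encodes an endocytic receptor that clears thrombospondins and proteases. Its promoter held 22 in knockout and 65 in floxed cells and was 2.95-fold lower in the knockout (1.76 to 5.17). A region of the collagen gene Col16a1, 2603 bp from the start, held 17 in knockout and 3 in floxed cells, 5.67-fold higher in the knockout (1.48 to 55.7). The integrin gene Itgb8 had 31 in knockout and 10 in floxed cells, a ratio of 3.1 (1.41 to 8.75). P4ha1, a subunit of the collagen prolyl 4-hydroxylase, had 3 in knockout and 10 in floxed cells, and the aggrecan- and versican-cleaving protease gene Adamts5 had 9 in knockout and 4 in floxed cells. The intervals of both reached no difference. With chromosomes centred, Itgb8 (0.99) and Adamts5 (0.76) were within 2-fold, and Adamts5 was so also after quantile (0.27) and loess scaling (-0.04), the last with the other sign. None of the 5 measured genes of glycosaminoglycan synthesis was called.

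Collagen genes in the Rela pair, Col1a2 included, had 1 of 11 regions higher in the knockout and 4 lower, with a median of -0.79, or -0.36 over the 8 promoter regions. These 5 of 11 called are near the 43.3% called over all regions. Among the 8 promoter regions 1 was higher and 1 lower, beside 13% and 13.1% of all promoter regions. Col16a1 held 42 in knockout and 123 in wild-type cells at 2655 bp from its start. Col5a1, of a fibril-regulating collagen, held 20 in knockout and 53 in wild-type cells, and a region of the microfibrillar Col6a1 held 12 in knockout and 38 in wild-type cells. The cartilage-type Col11a1 was higher, with 47 in knockout and 20 in wild-type cells. Relative to their 50 nearest regions Col5a1 (-0.84), Col6a1 (-0.87) and Col11a1 (0.79) were within 2-fold and Col16a1 was not (-1.58), and Col11a1 was also within 2-fold when centred on its chromosome (0.66).

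Matrix glycoproteins, a list that holds 6 of the 9 genes, had 5 of 29 regions higher and 6 lower in the Rela knockout, with a median of 0. Sparcl1, a relative of the collagen-binding SPARC, had 41 in knockout and 2 in wild-type cells at its promoter, a ratio of 20.5 (6.37 to 100.4). The fibulin gene Fbln2 had 14 in knockout and 68 in wild-type cells at 4694 bp from its start, 4.86-fold lower in the knockout (2.77 to 8.89), the opposite direction to Fbln1. Of 14 proteoglycan regions, Vcan and Sdc2 included, 1 was higher and 1 lower. The glypican gene Gpc5 held 47 in knockout and 6 in wild-type cells, and the lubricin gene Prg4, in a region at a distance of 5281 bp, held 17 in knockout and 132 in wild-type cells.

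In glycosaminoglycan synthesis 3 of 27 regions were higher and 4 lower in the Rela knockout. The chondroitin sulfotransferase gene Chst15 held 111 in knockout and 22 in wild-type cells, and the heparan sulfate-modifying Ndst3 held 100 in knockout and 32 in wild-type cells. Lower were Chpf2, of chondroitin chain extension (13 in knockout, 33 in wild-type cells), and the chondroitin sulfotransferase gene Chst7 (13 in knockout, 29 in wild-type cells), which loess scaling brought just within 2-fold (-0.99).

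Collagen processing and crosslinking had 2 of 24 regions higher and 3 lower. Sec23a, of the vesicle coat that exports procollagen, had 35 in knockout and 6 in wild-type cells at 3988 bp from its start, and the tolloid-like protease gene Tll2 had 46 in knockout and 10 in wild-type cells. Adamts2, which trims procollagen, had 2 in knockout and 14 in wild-type cells, and Ppib, a prolyl isomerase of collagen folding, had 8 in knockout and 20 in wild-type cells. Ppib was within 2-fold when centred on its chromosome (-0.99) or on its 50 nearest regions (-0.72).

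Matrix turnover had 2 of 16 regions higher and 3 lower in the Rela knockout. Adamts9, a versican-cleaving protease gene, held 28 in knockout and 12 in wild-type cells, and Adamts7 held 17 in knockout and 5 in wild-type cells. The hyaluronidase genes Hyal1 (4 in knockout, 17 in wild-type cells) and Hyal2 (16 in knockout, 36 in wild-type cells) were lower. Their regions lie close together on chromosome 9, starting at 107576785 and 107568821, and Hyal2 was within 2-fold when centred on the chromosome (-0.89). Among matrix receptors, against the same 22.4% and 21% over all regions, 0 of 18 regions were higher and 2 lower. The 2 were those of the collagen- and laminin-binding integrins Itga1 (30 in knockout, 147 in wild-type cells) and Itga7 (9 in knockout, 42 in wild-type cells). Among the 10 promoter regions of receptors 0 were higher and 2 lower, beside 13% and 13.1% of all promoter regions.

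**Figure D5:**
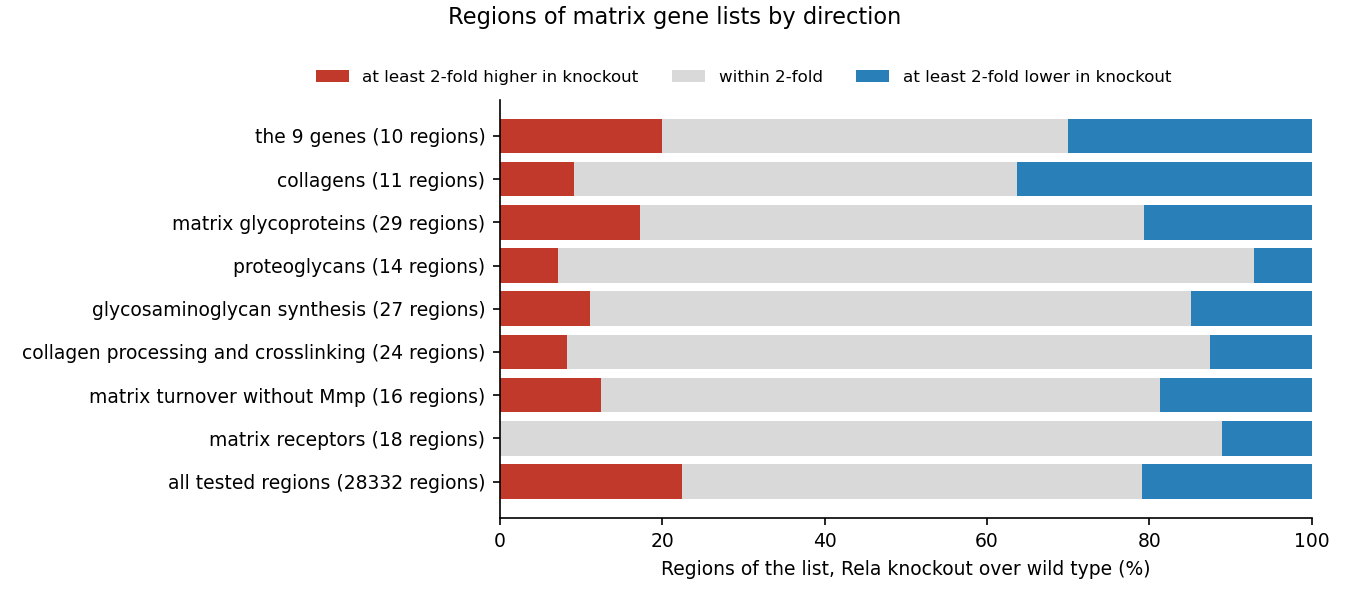
Share of regions (%) that were at least 2-fold higher in Rela knockout than in wild-type cells, within 2-fold, or at least 2-fold lower, for the 9 genes, 7 lists of matrix genes that may hold them, and all regions tested. The 9 genes had 2 higher and 3 lower of 10 regions, and matrix receptors had 0 higher and 2 lower of 18. Promoter regions, of which 13% were higher and 13.1% lower, make up most of each list but 28.5% of all regions tested.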

How the data were processed

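ATAC-seq was measured in 4 mouse fibroblast cultures. Per the submitters' processing notes, which give no role or order, the tools were bedtools, DESeq2, deepTools, MACS2, Picard 1.136, STAR 2.4.2a, Trimmomatic 0.33 and FastQC, on mm10. The authors deposited 1 table per knockout with 1 score per culture and region, a background-corrected signal given as a whole number and normalized within its table by the DESeq method, as the labels name each table. How 2 replicates became 1 column, and how Tn5 offsets, duplicates and mitochondrial reads were treated, is not given in the sources used here. Neither table says whether starts count from 0 or from 1. Distance to the start and the fraction of a region inside its gene are values the authors deposited, and log2 ratios were computed from the deposited scores.

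With 1 value per culture no test was made, and the planned description was used. Regions entered with a mean of at least 1. The log2 ratio has a pseudocount of 1, which understates the difference of weak regions. A whole-number count multiplied by 1 factor and rounded leaves some values too rare or too frequent, and the best factors were 0.949 for Rela knockout (87.7% of the deviance from a smooth distribution), 0.683 for Rela wild-type (97.9%) and 1.36 for Kindlin-2 floxed cells (97.2%). No factor explained over 8.16% for Kindlin-2 knockout, which was given 1 after this was seen. Signals divided by the best factors, or by 1 for Kindlin-2 knockout, are the implied counts behind the intervals. If the Kindlin-2 knockout column blends replicates its depth is unknown. Intervals take the background correction as free of error, so they may be too narrow for values near 0.

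Alternatives were pseudocounts of 0.5 and 5, no minimum or a minimum mean of 10, quantile scaling, loess scaling (lowess, span 0.3), centring on the chromosome or on the 50 nearest regions, calls at 1.5-fold and 3-fold, and promoter regions alone. In lists, up to 4 genes per list with the largest called log2 ratio are named. List genes were matched by symbol, and 0 more were found by an older symbol. The 9 genes and the lists were chosen with earlier results of these data known. Scripts were tested on simulated data. Python 3.11.15, NumPy 2.4.6, pandas 2.3.3, SciPy 1.17.1, statsmodels 0.14.6 and Matplotlib 3.10.9 were used.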

Additional observations from a re-analysis of the deposited data

How the results depend on the processing

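For the Kindlin-2 pair, 3 of 4 regions were called at 2-fold and 1, Sdc2, at 3-fold. For the Rela pair, 5 of 10 regions were called at 2-fold, 8 at 1.5-fold and 2, Tnc and Thbs2, at 3-fold, with Thbs2 exactly on that limit. The other settings tried kept these counts within 1.5 times. Sdc2 in the Kindlin-2 pair and Tnc in the Rela pair were past 2-fold under all 6 pseudocount and scaling alternatives. Fbln1 and Thbs2 in the Rela pair were called under all 6, but with a pseudocount of 5 both stood exactly at the limit (log2 ratio 1). Thbs2 fell out at a minimum mean of 10, which left 9 regions with 1 higher. No called region of the 9 genes changed sign under any of the 6 alternatives. Uncalled regions of Fn1 (-0.06), Thbs1 (0.59) and the first of Col1a2 (0.14) in the Rela pair changed sign when centred on the 50 nearest regions, and Thbs1 (0.09) also when centred on its chromosome. The cause was not tested. Other matrix genes called in the Kindlin-2 pair numbered 5, and 3 with chromosomes centred. No paired analysis was possible because each genotype has 1 value, and for the same reason no replicate could be left out. Kindlin-2 differences rest on 3 to 25 implied counts per value and those of the Rela pair on 4 to 384, which leaves changes of weak regions loosely bounded.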

Other observations

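The Rela table carries KEGG pathway terms from the authors' annotation, which the lists above did not use. The term ECM-receptor interaction covered 26 genes with 31 regions, among them Col1a2, Fn1, Thbs1, Thbs2 and Tnc. In the knockout 1 of these regions was at least 2-fold higher and 5 were at least 2-fold lower, with a median log2 ratio of 0.21. Focal adhesion covered 93 genes with 108 regions and the same 5 matrix genes, with 8 regions higher, 18 lower and a median of -0.02. Over all regions 22.4% were higher and 21% lower. Among promoter regions alone, Focal adhesion had 8 higher and 13 lower of 82, and ECM-receptor interaction 1 higher and 3 lower of 20. Over all promoter regions 13% were higher and 13.1% lower. Within Focal adhesion, a region of Capn2, a calpain protease of adhesion turnover, held 8 in knockout and 75 in wild-type cells, 9.38-fold lower (4.85 to 23.5), and a region of the atrial myosin light chain gene Myl7 held 2 in knockout and 14 in wild-type cells.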
